A study of Mus musculus with 12 samples.

Results

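The genes described here are p53 and 9 of its stress target genes, followed over 12 Affymetrix arrays of mouse ET cells. The list held Trp53, Mdm2, Bbc3, Bax, Ccng1, Ccng2, Gadd45a, Gadd45b, Gadd45g and Btg2, and a probe set belonged to it when the platform annotation gave it 1 of these symbols. That held for 15 probe sets of 8 of the 10 genes, among 22690 probe sets in all. The annotation used here names no probe set for Trp53 or Bax, so the RNA of neither is analysed here. The level of p53 RNA itself is therefore not part of these results. All 15 probe sets had a mean level above the filter for low values and were tested.

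ET is a mouse cell line, labelled as cortical thymic epithelium of fetal origin. Cells received 5 nM of the dioxin TCDD, a ligand for the aryl hydrocarbon receptor (AhR), for 2, 4 or 6 h, or the solvent 1,4-dioxane at 0.05% by volume for the same times. Each of the 6 groups had 2 arrays, called biological duplicates with no word on which step was repeated. The p-values therefore rest on a spread between arrays that may be technical in part. All results come from 1 line, and of 12 marker genes of cortical thymic epithelium, 11 were on the array and 6 lay above the filter. Those below it were Epcam, Krt18, Ly75, Prss16 and Cd83, and the cortical list had a median percentile of 32.9 of all levels. Of the markers of fibroblasts and mesenchyme 10 of 10 lay above the filter, at a median percentile of 97.8. The identity of the cells was not tested.

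The labels of 3 arrays contradicted themselves, and titles set the groups. The second 4 h TCDD array named the solvent in its treatment field, and both 6 h solvent arrays named 4 h in their descriptions. Cyp1a1, the classical AhR target, had log2 levels of 9.3 to 11.1 on the 6 TCDD arrays and 4.0 to 5.5 on the 6 solvent arrays, and the second 4 h TCDD array had 10.2. The arrays also parted into a larger set of 7 (3 TCDD, 4 solvent) and a smaller set of 5 (3 TCDD, 2 solvent), which cut across treatment and time. In the smaller set were the first 4 h TCDD array and, for 2 h and 6 h, the second array of TCDD and of solvent. Its Mt1 levels were 9.6 to 10.8, against 7.1 to 7.4 in the larger set. No 4 h solvent array was in the smaller set.

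p53 is a transcription factor that is held low by constant degradation and accumulates after DNA damage and other stress. It then switches on genes that stop the cell cycle, repair DNA or start apoptosis, and also Mdm2, whose product marks p53 for degradation and closes a feedback loop. Several of these genes also answer to other inputs: Gadd45b to NF-kB and TGF-beta signals, Btg2 to growth factors, and Ccng2 to FoxO factors. In the thymus, p53 is best known for the death of irradiated thymocytes.

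The question was whether p53 target genes other than the kinase inhibitor gene Cdkn1a were higher with TCDD. None of the 15 probe sets passed the test (limma, adjusted p under 0.05) at 2, 4 or 6 h or in the average of the 3 times. The highest values were early and lay in 2 genes. Btg2, an anti-proliferative cofactor, was 1.20 ± 0.43 and 1.35 ± 0.48 higher with TCDD at 2 h on the log2 scale (SE, 2 arrays a group), and Gadd45b, a stress sensor, was 0.75 ± 0.33 and 0.70 ± 0.41 higher by its brighter probe sets. Mdm2, the feedback gene of p53, had changes of -0.05 ± 0.26 and -0.40 ± 0.26 at 2 h.

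Promoters of 3 genes are shown, picked by their 2 h values, none of which passed the test. Btg2 and Gadd45b had the highest 2 h values, and Mdm2, the p53 feedback gene, had values near 0 or below it. Each runs 5′ to 3′ from 250 bases before to 50 bases after the start of the gene (RefSeq, GRCm38.p6). Capitals mark the core of the AhR response element, GCGTG on either strand, and the p53 half-site consensus. The latter was searched as RRRCWWGYYY, with R for A or G, W for A or T and Y for C or T.
Btg2, minus strand, chr1:134079106-134079405: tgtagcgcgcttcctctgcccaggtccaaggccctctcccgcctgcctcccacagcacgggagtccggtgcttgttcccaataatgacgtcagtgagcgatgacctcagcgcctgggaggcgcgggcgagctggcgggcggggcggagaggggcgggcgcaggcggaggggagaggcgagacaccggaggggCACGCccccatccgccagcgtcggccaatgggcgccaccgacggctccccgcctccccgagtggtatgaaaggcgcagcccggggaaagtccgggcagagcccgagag
Gadd45b, plus strand, chr10:80929841-80930140: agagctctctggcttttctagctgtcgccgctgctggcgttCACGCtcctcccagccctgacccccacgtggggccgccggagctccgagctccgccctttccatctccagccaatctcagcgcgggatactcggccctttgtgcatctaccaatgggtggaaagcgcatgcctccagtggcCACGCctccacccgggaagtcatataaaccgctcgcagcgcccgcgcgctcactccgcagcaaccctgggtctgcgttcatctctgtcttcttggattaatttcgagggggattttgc
Mdm2, minus strand, chr10:117710709-117711008: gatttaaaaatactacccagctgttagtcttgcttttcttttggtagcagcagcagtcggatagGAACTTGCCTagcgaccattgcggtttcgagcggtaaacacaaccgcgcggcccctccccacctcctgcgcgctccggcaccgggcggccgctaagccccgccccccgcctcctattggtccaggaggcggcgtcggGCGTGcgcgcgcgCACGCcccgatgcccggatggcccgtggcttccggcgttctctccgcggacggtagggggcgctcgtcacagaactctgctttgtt

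The Btg2 window held 1 GCGTG core, on the opposite strand 58 bases before the start, and no match to the p53 half-site. The Gadd45b window held 2 cores, 209 and 68 bases before the start, and no half-site match. The Mdm2 window held 1 half-site match 186 bases before the start and 2 cores at 49 and 36 bases. All 8 genes matched the promoter table, with 10 windows. At least 1 GCGTG core lay in 6 of the 8 genes, all but Gadd45a and Gadd45g, and in 8 of the 10 windows. Over all 32851 windows of the table, 32.4% held it. The half-site was matched in Mdm2, Ccng1 and Gadd45a, against 8.36% of all windows. Trp53 and Bax, which had no probe set, are outside these counts, and the window of each held no core and 1 half-site match. Matches of the 2 motifs did not overlap in the windows shown. A match is a description of letters and not a bound site.

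Mdm2, the ubiquitin ligase that marks p53 for degradation, is itself one of the most direct p53 targets. By probe set 1423605_a_at its levels were 7.4 and 7.6 in TCDD cells against 7.2 and 7.9 in solvent cells at 2 h, 6.9 and 7.4 in TCDD cells against 7.4 and 7.2 in solvent cells at 4 h, and 7.4 and 7.7 in TCDD cells against 7.5 and 7.4 in solvent cells at 6 h. The groups overlapped at each time. Averaged over the times the change was -0.03 ± 0.15 (SE), with a 95% interval of -0.36 to 0.30. Probe set 1427718_a_at gave -0.13 ± 0.15, with an interval of -0.47 to 0.20. An average change of Mdm2 inside these intervals, which are before adjustment, is compatible with these values. The intervals are not a limit of detection for the adjusted test.

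Bbc3 encodes PUMA, a BH3-only protein through which p53 starts apoptosis. Its levels at 2 h were 5.2 and 5.0 in TCDD cells against 4.7 and 4.6 in solvent cells. At 4 h they were 4.9 and 4.7 in TCDD cells against 4.9 and 4.9 in solvent cells, and at 6 h 4.8 and 4.8 in TCDD cells against 4.9 and 5.0 in solvent cells. TCDD cells were thus above solvent cells without overlap at 2 h and below them without overlap at 6 h, within a total range of 0.6. Levels are given to 1 decimal, and the nearest ones at 6 h, 4.8 and 4.9, are neighbouring values. The change at 2 h was 0.45 ± 0.15 (95% interval 0.11 to 0.79, unadjusted p = 0.015, adjusted p = 1 by limma), and the changes at 4 and 6 h were -0.10 and -0.15. The change of the TCDD effect over time had an unadjusted p of 0.037 by limma's F-test and an adjusted p of 1. Of all tested probe sets 0.663% lay under an unadjusted p of 0.05 in that test, and Bbc3 was the 1 of the 15.

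Ccng1, cyclin G1, is a p53 target that recruits a phosphatase to Mdm2. By its brightest probe set, 1420827_a_at, levels at 2 h were 6.2 and 5.8 in TCDD cells against 5.6 and 6.1 in solvent cells. At 4 h they were 4.8 and 6.9 in TCDD cells against 5.8 and 5.8 in solvent cells, and at 6 h 6.9 and 6.8 in TCDD cells against 6.7 and 6.1 in solvent cells. The TCDD arrays at 4 h lay further apart than the groups did, and at 6 h TCDD cells were above solvent cells by 0.45 ± 0.53. The other probe sets of Ccng1 gave average changes of 0.07 ± 0.10 and 0.22 ± 0.21.

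Ccng2, cyclin G2, rises in cells that leave the cycle. Probe set 1416488_at had 7.1 and 6.0 in TCDD cells against 7.4 and 5.4 in solvent cells at 2 h, 5.9 and 7.8 in TCDD cells against 7.5 and 7.5 in solvent cells at 4 h, and 7.3 and 5.8 in TCDD cells against 7.5 and 6.1 in solvent cells at 6 h. These levels followed the array set and not the treatment: they were 5.4 to 6.1 in the smaller set and 7.1 to 7.8 in the larger set, and those of 1448364_at were 4.8 to 5.3 in the smaller set and 5.7 to 6.2 in the larger set. Of all tested probe sets, 3.14% were lower in the smaller set without overlap. The sets were formed from the same values, so this is a description. By 1416488_at the change with TCDD at 4 h was -0.65 ± 0.83, 0.30 without the first 4 h TCDD array and 0.14 with the set as a block. The average change with TCDD was -0.25 ± 0.48, and 0.01 ± 0.12 with the set as a block.

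**Figure D1:**
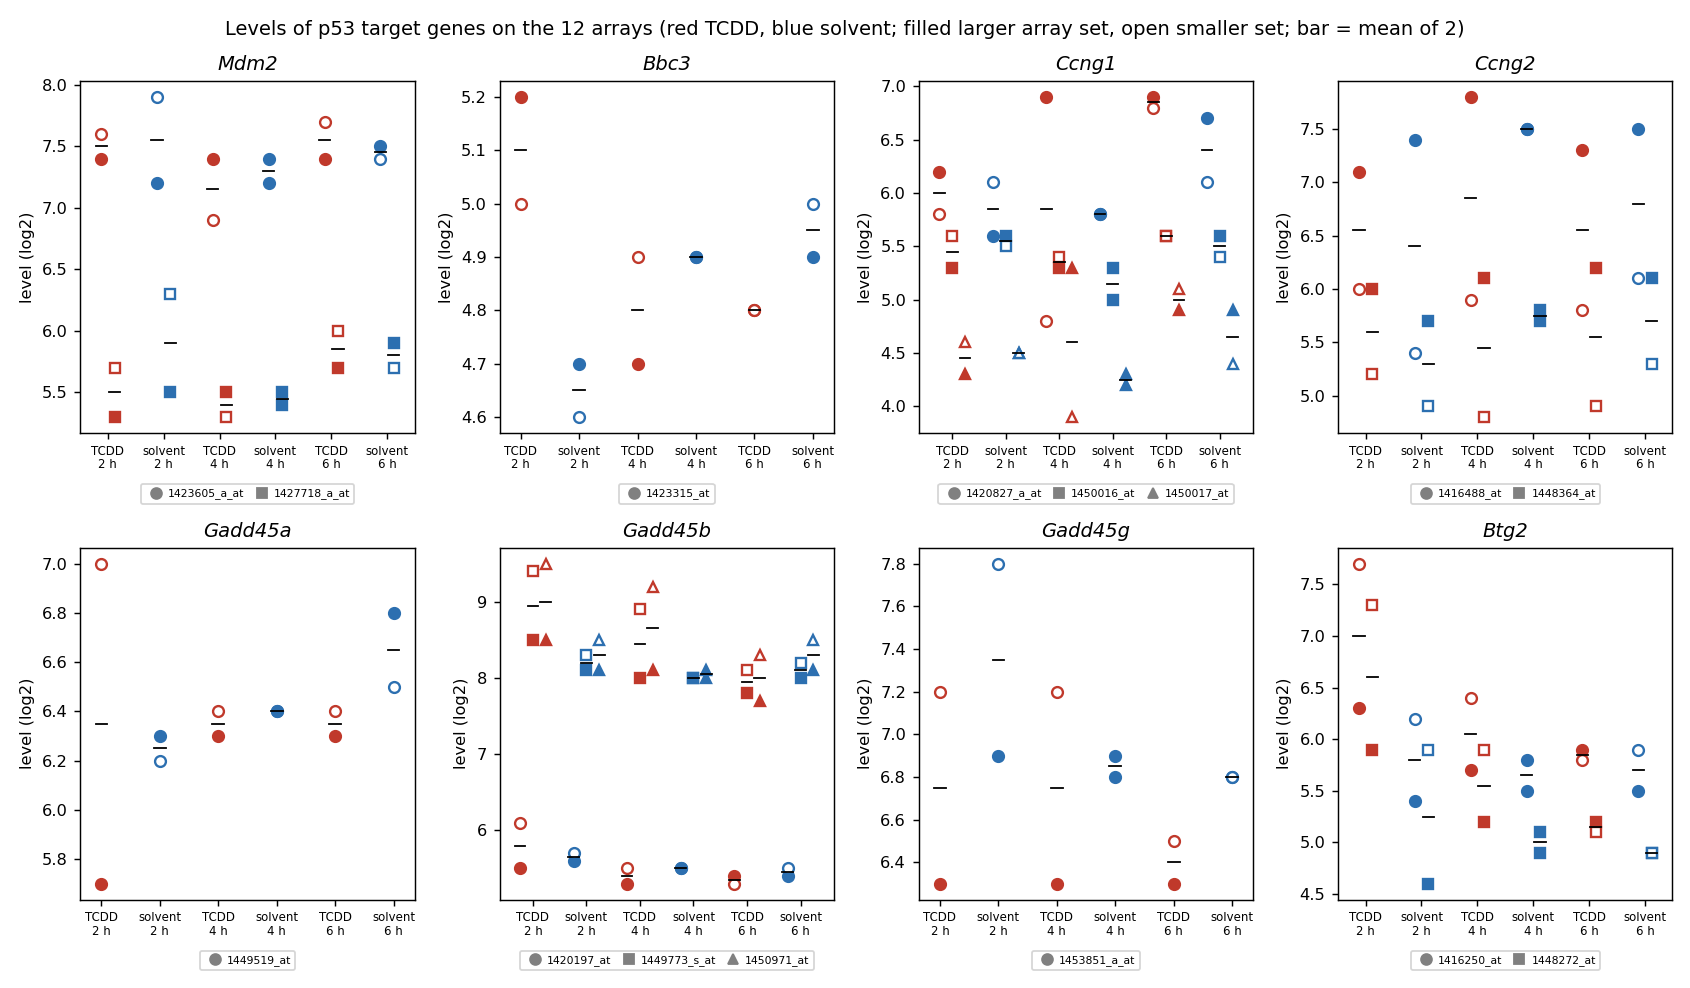
Levels (log2, y axis) of the 8 genes by treatment and time (x axis). Red points are TCDD arrays and blue points solvent arrays, filled for the larger and open for the smaller array set, marker shapes are probe sets, bars are means of 2 arrays, and equal values lie on top of each other. Both probe sets of Btg2 were highest on the second 2 h TCDD array, at 7.7 and 7.3, and Ccng2 parted by array set.

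Gadd45a, Gadd45b and Gadd45g encode small stress-induced proteins that bind stress kinase activators and PCNA; Gadd45a is the classical p53 target among them. Gadd45b, by probe set 1449773_s_at, had 8.5 and 9.4 in TCDD cells against 8.1 and 8.3 in solvent cells at 2 h, 8.9 and 8.0 in TCDD cells against 8.0 and 8.0 in solvent cells at 4 h, and 7.8 and 8.1 in TCDD cells against 8.0 and 8.2 in solvent cells at 6 h. Its high values were thus the second 2 h and the first 4 h TCDD arrays, both of the smaller set, and the groups did not overlap at 2 h. The change at 2 h had a 95% interval of 0.01 to 1.49 (unadjusted p = 0.047, adjusted p = 1 by limma). Within the larger set it was 0.4, and within the smaller set 1.1.

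The second probe set of Gadd45b, 1450971_at, had 8.5 and 9.5 in TCDD cells at 2 h against 8.1 and 8.5 in solvent cells, a change of 0.70 ± 0.41. The dimmer 1420197_at had levels of 5.3 to 6.1 and a change of 0.15 ± 0.20, so the probe sets of this gene did not give 1 size. Leaving out the second 2 h TCDD array brought the 2 h changes to 0.30, 0.20 and -0.15. At 4 h the changes of 1449773_s_at, 1450971_at and 1420197_at were 0.45, 0.60 and -0.10. The first and second of these were 0.20 and 0.25 with the set as a block, and 0 and 0.05 without the first 4 h TCDD array. At 6 h the changes were -0.15, -0.30 and -0.10.

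Gadd45a had 5.7 and 7.0 in TCDD cells against 6.3 and 6.2 in solvent cells at 2 h, 6.4 and 6.3 in TCDD cells against 6.4 and 6.4 in solvent cells at 4 h, and 6.3 and 6.4 in TCDD cells against 6.8 and 6.5 in solvent cells at 6 h. The TCDD arrays at 2 h lay on either side of the solvent arrays. At 6 h they were lower without overlap, though the nearest levels, 6.4 and 6.5, are neighbouring values. The average change was -0.08 ± 0.19.

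Gadd45g had lower means with TCDD at each time, though at 4 h not without the second TCDD array. It had 6.3 and 7.2 in TCDD cells against 6.9 and 7.8 in solvent cells at 2 h, 7.2 and 6.3 in TCDD cells against 6.8 and 6.9 in solvent cells at 4 h, and 6.3 and 6.5 in TCDD cells against 6.8 and 6.8 in solvent cells at 6 h. Within each array set and time that held both treatments it was lower with TCDD, with differences of -0.6, -0.6, -0.55, -0.5 and -0.3. Of all tested probe sets, 2.71% were below 0 in all 5 of these. The 4 h change was -0.10, and 0.35 without the second 4 h TCDD array. At 2 h it was -0.60, -1.05 without the second TCDD or the first solvent array, and -0.15 without the first TCDD or the second solvent array. The average change was -0.37 ± 0.22, or -0.52 to -0.22 with 1 array left out (adjusted p = 1 by limma), and -0.46 ± 0.14 with the set as a block (unadjusted p = 0.009, adjusted p = 0.524).

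Btg2 belongs to the BTG and TOB family, which recruits deadenylases to RNA and slows proliferation, and it was found as a p53-inducible gene. By probe set 1416250_at it had 6.3 and 7.7 in TCDD cells against 5.4 and 6.2 in solvent cells at 2 h, 6.4 and 5.7 in TCDD cells against 5.8 and 5.5 in solvent cells at 4 h, and 5.9 and 5.8 in TCDD cells against 5.5 and 5.9 in solvent cells at 6 h. By 1448272_at it had 5.9 and 7.3 in TCDD cells against 4.6 and 5.9 in solvent cells at 2 h, 5.9 and 5.2 in TCDD cells against 4.9 and 5.1 in solvent cells at 4 h, and 5.2 and 5.1 in TCDD cells against 4.9 and 4.9 in solvent cells at 6 h. For both probe sets, each of the 6 TCDD arrays was above the solvent mean of its time, by most at 2 h. The share of all tested probe sets for which this held was not counted. The groups did not overlap at 2 h by the first probe set and at 4 and 6 h by the second.

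The changes at 2 h were 2.30-fold and 2.55-fold, with 95% intervals in log2 of 0.23 to 2.17 and 0.27 to 2.43 (unadjusted p = 0.020 and 0.019, adjusted p = 1 by limma). At 4 h they were 0.40 and 0.55 in log2, and at 6 h 0.15 and 0.25. The averages were 0.58 ± 0.25 and 0.72 ± 0.28, with unadjusted p-values of 0.043 and 0.028 and adjusted p = 1. In a fit blocked on replicate number by time, adjusted p-values at 2 h were 0.413 and 0.359. With the array set as a block they were 0.573 and 0.674.

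The size at 2 h moved with single arrays. Without the second 2 h TCDD array the 2 h changes of Btg2 were 0.50 and 0.65, and without the first they were 1.90 and 2.05. Without the first 2 h solvent array they were 0.80 and 0.70, and without the second 1.60 and 2.00. The sign was positive each time. Within the larger array set the 2 h differences were 0.9 and 1.3, and within the smaller set 1.5 and 1.4. By 1448272_at all 5 differences within set and time were above 0, which 2.21% of all tested probe sets showed. By 1416250_at 4 of the 5 were above 0, and that at 6 h in the smaller set was -0.1.

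**Figure D2:**
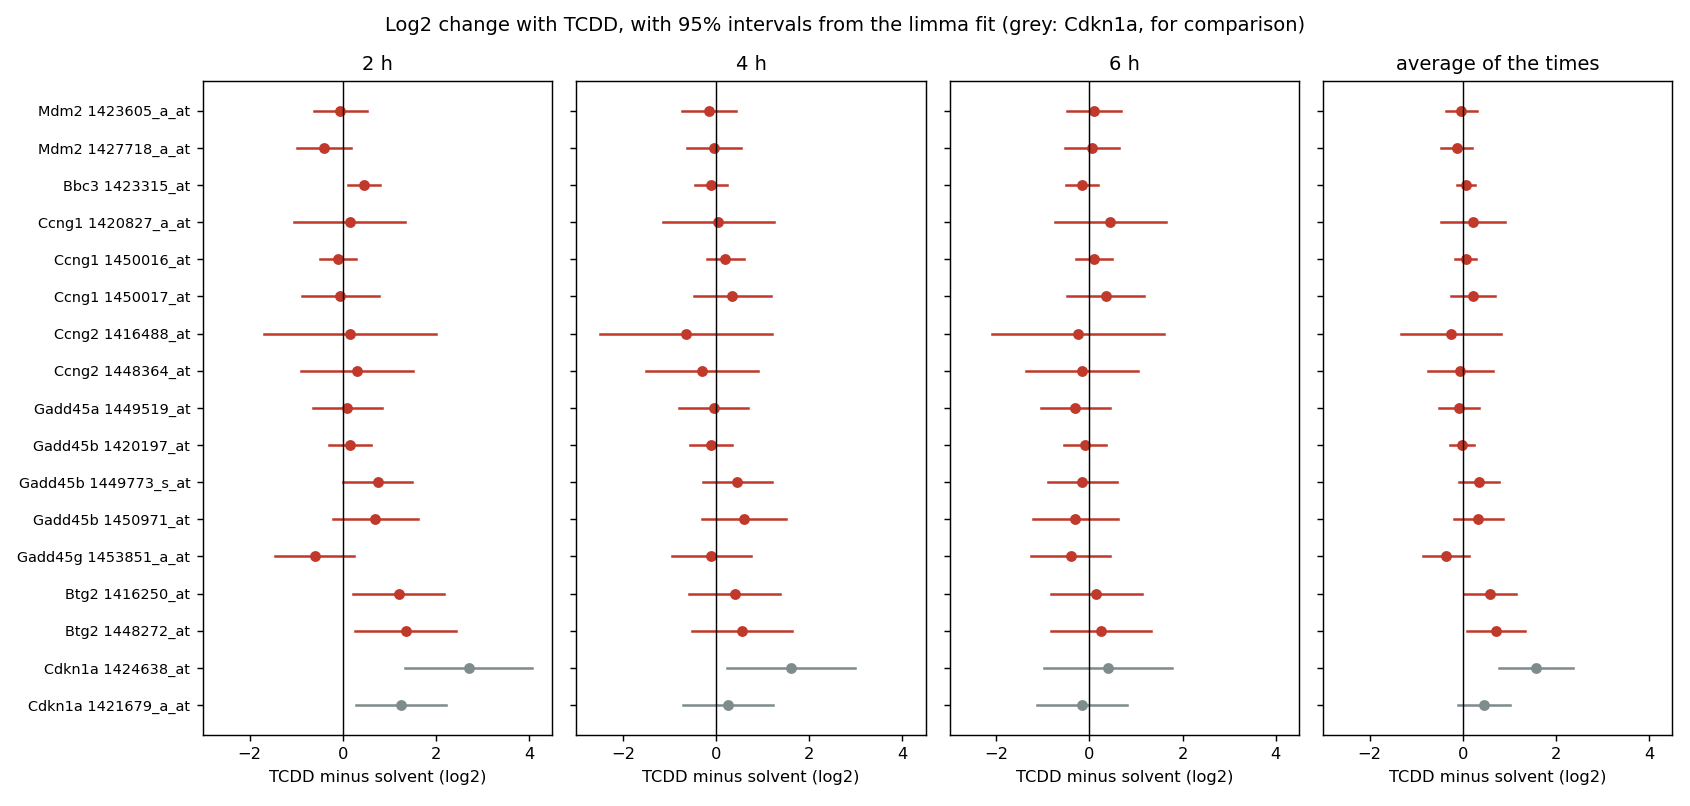
Change with TCDD against solvent (log2, x axis) for the 15 probe sets in red and the 2 of Cdkn1a in grey (y axis), at 2, 4 and 6 h and for the average. Points are fitted changes and lines 95% intervals before adjustment, and for the average only those of Btg2 among the red ones lie above 0.

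Across all 15 probe sets the calls stayed at 0, and so did the calls with the array set as a block. Of all 15844 tested probe sets, 0.0189% passed at 2 h, 0.0126% at 4 h, 0.00631% at 6 h and 0.0947% in the average. At an unadjusted p under 0.05, 4 of the 15 were higher at 2 h, from the 3 genes Btg2, Gadd45b and Bbc3, against 0.978% of all probe sets. None of the 15 was lower, against 0.511% of all. In the average, 2 of the 15 were higher, both of Btg2, against 1.87% of all, and none was lower, against 1.49%. None was higher at 4 h or at 6 h, where 1.27% and 1.41% of all were, and none was lower, where 0.903% and 0.738% were. Probe sets of 1 gene measure the same RNA, so these counts are not of independent items.

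With the array set as a block, whose p-values can be too small because the sets come from the same values, 0.0631% of all passed at 2 h, 0.0442% at 4 h, 0.0505% at 6 h and 0.29% in the average, and 0 of the 15 did. At an unadjusted p under 0.05 in that fit, 5 of the 15 were higher at 2 h, again of Btg2, Gadd45b and Bbc3, against 1.66% of all, and Gadd45g was lower, against 1.04%. In the average the 2 of Btg2 were higher, against 2.8%, and Gadd45g was lower, against 2.35%. None was higher at 4 h or at 6 h, where 1.69% and 2.1% of all were, and none was lower, where 1.12% and 1.62% were. The change over time lay under that p for 4 of the 15 (Bbc3, Btg2 and 2 of Gadd45b), against 1.49%.

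TCDD and solvent arrays did not overlap at 2 h, with TCDD higher, for 3 of the 15 probe sets (Bbc3, Gadd45b and Btg2), against 7.16% of all. At 4 h this held for 1 of the 15 (Btg2), against 7.95%, and at 6 h for 2 (Ccng1 and Btg2), against 9.69%. TCDD was lower without overlap for 3 at 6 h (Bbc3, Gadd45a and Gadd45g), against 9.66%, and for 0 at 2 and 4 h, against 6.68% and 11.1%. No probe set of the 15 was on the same side without overlap at all 3 times, against 0.467% of all for higher and 0.183% for lower. Levels are given to 1 decimal, so a lack of overlap can rest on neighbouring values. This was so for Bbc3, Gadd45a and Ccng1 at 6 h and for Btg2 at 2 and 4 h.

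At 2 h the 15 had a median change of 0.15, against 0 for all tested probe sets. The medians were -0.05 against 0 at 4 h, -0.10 against -0.05 at 6 h, and 0.07 against 0 in the average. Changes were above 0 for 10 of the 15 at 2 h, against 43.8% of all tested probe sets, for 7 at 4 h, against 44.5%, for 7 at 6 h, against 38.7%, and for 8 in the average, against 44.0%. With the array set as a block the 4 h median turned to 0.14, with 9 above 0, against 46.6% of all. In the average of that fit 10 were above 0, against 45.7%. The positive side at 2 h was led by Btg2, Gadd45b and Bbc3, while Gadd45g and Mdm2 led the negative side.

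Cdkn1a, the p53 target that encodes the kinase inhibitor p21, was the gene set apart in the question. By 1424638_at it had 8.9 and 9.8 in TCDD cells against 6.0 and 7.3 in solvent cells at 2 h, a change of 2.70 ± 0.61 (adjusted p = 0.834 by limma), and 2.70 ± 0.21 with the array set as a block (adjusted p = 0.00184 by limma). At 4 h its change was 1.60, or 1.03 with the block, and at 6 h 0.40 in both fits. The second probe set, 1421679_a_at, gave 1.25 ± 0.43 at 2 h, 0.25 at 4 h and -0.15 at 6 h, and did not pass with the block either (adjusted p = 0.664 at 2 h by limma). The call thus held for 1 of the 2 probe sets and in the blocked fit, whose sets come from the same values, and not in the fit without the block. Other alternatives were not run for this gene.

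Of 30 other p53 targets listed, Cdkn1a among them, 23 genes were tested with 30 probe sets. None passed at any time or in the average, and with the array set as a block Cdkn1a was the 1 gene that did, by 1424638_at, at 2 h and in the average. Their median change was 0.15 at 2 h and 0.04 in the average. In each 19 of 30 were above 0, against 43.8% and 44.0% of all tested probe sets. The probe sets of Cdkn1a averaged 1.57 ± 0.35 and 0.45 ± 0.25, and so did not give 1 size. Next came 0.40 for Tnfrsf10b, a death receptor, 0.40 for 1 of the probe sets of Sesn1, a sestrin that restrains mTORC1 (its others had 0.10 and -0.02), and 0.35 for Zmat3, a zinc finger protein that binds RNA. The lowest were -0.23 for Dram1, a lysosomal protein of autophagy, -0.18 for Phlda3, an inhibitor of Akt, and -0.17 for Ppm1d, the phosphatase that turns p53 signalling off.

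Of 20 regulators of p53, 13 genes were tested with 20 probe sets, and none passed. Medians were -0.05 at 2 h, 0.05 at 4 h, 0.10 at 6 h and 0 in the average. The highest averages were those of Atm, the kinase that senses DNA breaks, at 0.25, of Pml, which forms nuclear bodies, at 0.18 and of the ubiquitin ligase Rchy1 at 0.17. With the set as a block Pml (0.27) was above Atm (0.24). The level of Atm was 5.4 on the second 6 h TCDD array and 3.5 to 4.4 on the other arrays. Cdkn2a, whose Arf product blocks Mdm2, had the lowest at -0.33, followed by the deubiquitinase Usp7 at -0.12.

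None of the 12 genes of the BCL2 family passed, and their 27 probe sets had an average median of -0.10. Bcl2l11 (Bim) had 0.17 and 1 of the probe sets of Bcl2l2 had 0.15, against -0.22 for Bcl2l1 and -0.18 for Bik. The other tested probe sets of Bcl2l2 had 0.05 and, by the brightest, -0.12. None of the 7 kinases of the pathway that GADD45 proteins act on passed, with a median of -0.06. Relatives of Btg2 in the BTG and TOB family had a median of 0.13 over 7 probe sets of 3 genes. Among these, Btg1 was 0.75 ± 0.15 and 0.80 ± 0.24 higher at 2 h by its 2 probe sets, which did not pass (adjusted p = 0.634 and 1 by limma). Of FoxO factors and targets, 10 genes were tested and none passed without the block. Cdkn1b, which encodes the kinase inhibitor p27, had the highest average at 0.68, and Cited2 the lowest at -0.47. With the array set as a block Cdkn1b was 1.35 ± 0.18 higher at 2 h and passed (adjusted p = 0.042 by limma). It also passed in the average in that fit, at 0.77 ± 0.10 (adjusted p = 0.0188 by limma).

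**Figure D3:**
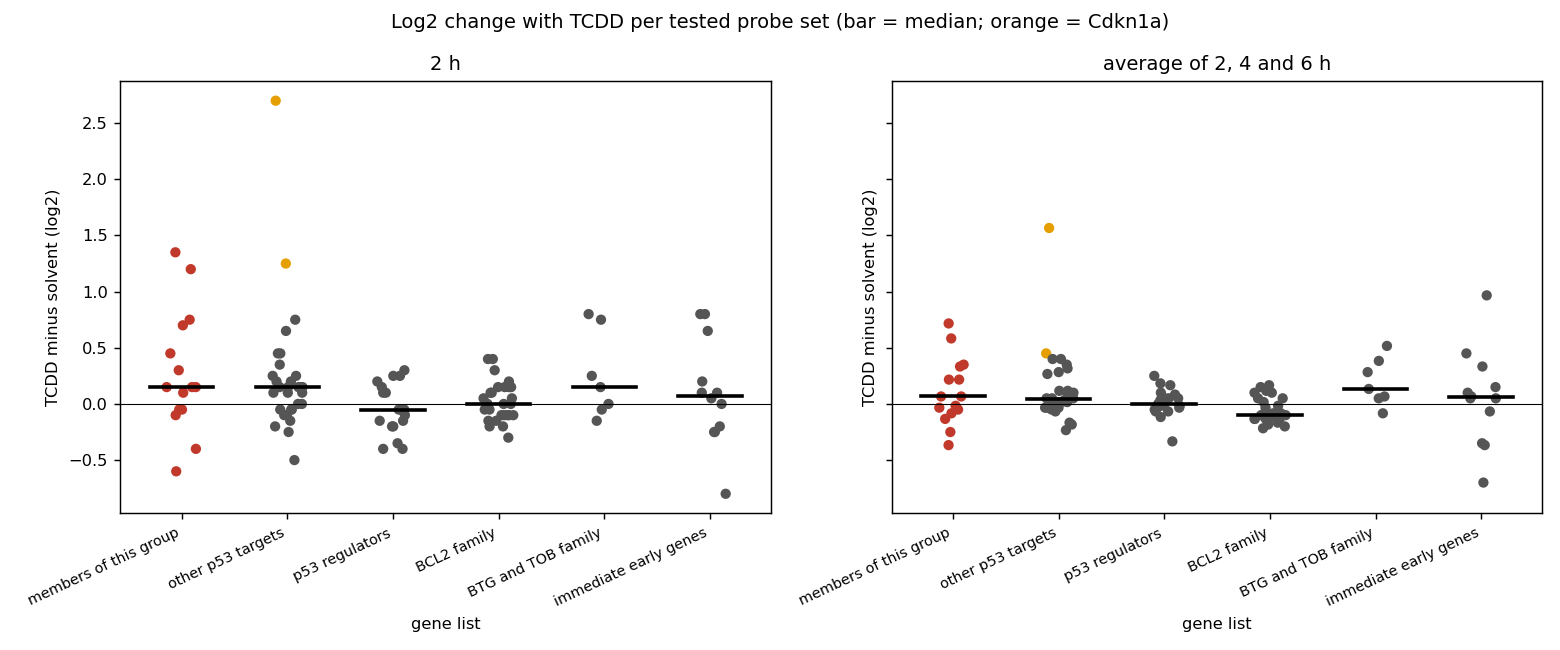
Change with TCDD against solvent (log2, y axis) of each tested probe set in 6 gene lists (x axis), at 2 h and for the average. Bars are medians and orange points Cdkn1a. Of the 15 probe sets in red, those of Btg2 lie highest at 2 h, at 1.35 and 1.20, and most points of the lists lie within 0.5 of 0.

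The design also allowed times to be compared, as the average of both treatments. At 6 h against 2 h none of the 15 passed, and 0% of all probe sets did. Btg2 was lower at 6 h, with changes of -0.62 ± 0.31 and -0.90 ± 0.34 in log2, the second with an unadjusted p of 0.025 and an adjusted p of 0.443 by limma. Gadd45b had changes of -0.55 ± 0.23, -0.50 and -0.33 ± 0.14, with adjusted p-values from 0.444 by limma. Group means of Btg2 at 2 and 6 h were 5.80 and 5.70 in solvent cells against 7.00 and 5.85 in TCDD cells by 1416250_at. By 1448272_at they were 5.25 and 4.90 against 6.60 and 5.15. Those of Gadd45b by 1449773_s_at were 8.20 and 8.10 against 8.95 and 7.95. For these probe sets the fall was thus larger in TCDD cells, though the change of the TCDD effect over time passed for none of the 15. At an unadjusted p under 0.05, 3 of the 15 were lower at 6 h, from these 2 genes, against 4.48% of all, and none was higher, against 6.58%. With the array set as a block 6 were lower, of Btg2, Gadd45b and Gadd45g, against 7.93%, and none was higher, against 10%. After adjustment 0 of the 15 passed in that fit, and 0.00631% of all. The latter was 1 probe set, 1424638_at of Cdkn1a, with a change of -1.70 ± 0.15 (adjusted p = 0.0149 by limma). At 4 h against 2 h none passed, with Btg2 at -0.55 and -0.65. None lay under an unadjusted p of 0.05 there, where 1.6% of all were higher and 1.24% lower, nor with the set block, where 3.1% and 2.56% were. The immediate early genes, fast targets of growth factor and stress signals, had medians of -0.60 at 4 h and -0.52 at 6 h against 2 h, and 0 of their 12 probe sets were above 0 at either time, against 48.3% and 44.6% of all; none passed. With the array set as a block 2 of the 12 were above 0 at 4 h, against 51.0% of all. With TCDD their average median was 0.06, with 8 of 12 above 0, against 44.0% of all tested probe sets. It turned to -0.09 with the set as a block, with 3 above 0, against 45.7%. Without the block Ier3 had the highest average at 0.97 and Dusp1 the lowest at -0.70.

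**Figure D4:**
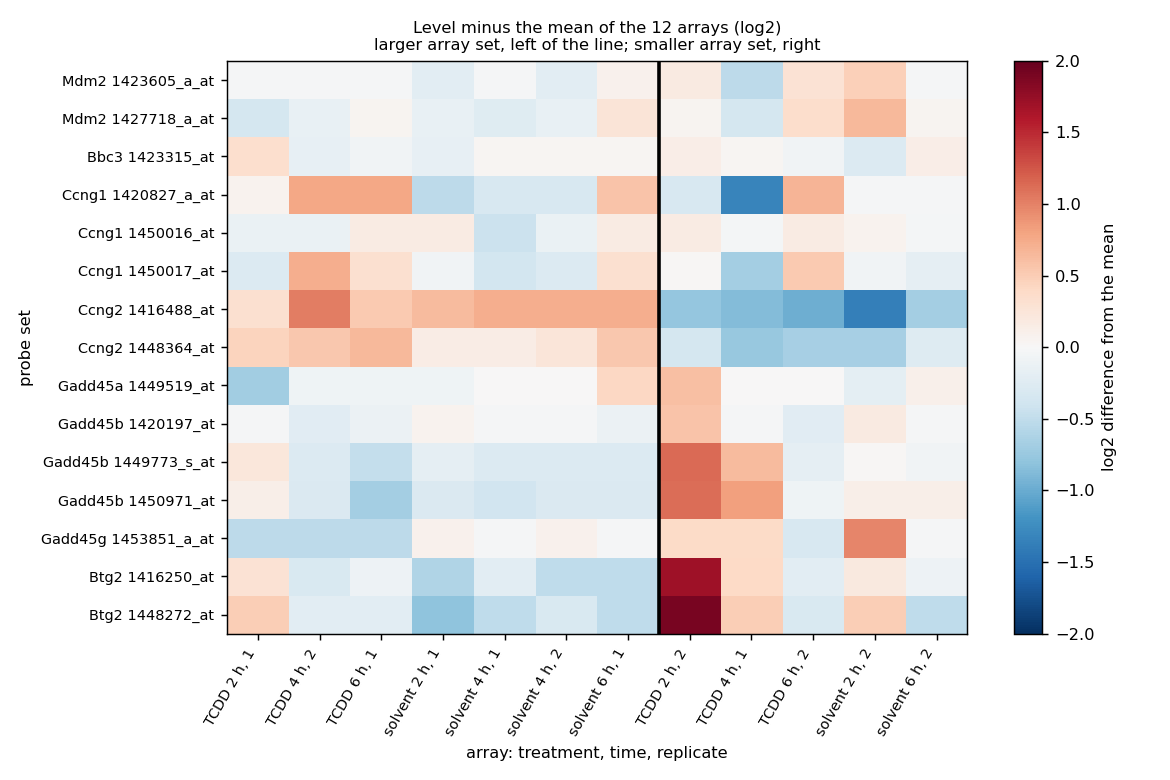
Level of each of the 15 probe sets (rows) on each array (columns, named by treatment, time and replicate), as the log2 difference from its mean over the 12 arrays. The black line parts the larger set on the left from the smaller set on the right. The 2 probe sets of Ccng2 change colour at the line, and Btg2 and Gadd45b are darkest on the second 2 h TCDD array.

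The likeness of patterns was measured as Pearson's r over the 12 arrays against 9119 probe sets of other genes, and the highest values are high by that choice. For Btg2 the most alike were Bcl10 (0.968), Hes1 (0.946) and Cdkn1a (0.944) by 1448272_at, and Lif (0.954), Gch1 (0.942) and Bcl10 (0.941) by 1416250_at. Gadd45b by 1449773_s_at was most like Lif (0.961), Ppp1r15a (0.955) and Spsb1 (0.949). Gadd45g was most like Bcar1 (0.969), Itga5 (0.923) and Pdgfa (0.910). Ccng2 by 1416488_at was most like Zfyve21 (0.966), and Ccng1 by 1420827_a_at most like Lamp2 (0.992). Mdm2 was most like Pus3 (0.950) by 1423605_a_at and Map2k4 (0.928) by 1427718_a_at. The highest values were lower for Gadd45a (0.807, Gpt2), Bbc3 (0.798, Fbxw11) and Ccng1 by 1450016_at (0.810, Cbll1). The arrays share treatment, time and array set, which these values do not take apart.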

How the data were processed

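RNA of ET cells was measured on 12 Affymetrix arrays. The authors deposited log2 values per probe set from RMA (per the submitters' processing notes, no version). Software and genome build are not given in the sources used here. The method sets all arrays to 1 distribution (median 5.1 on each), so a shift of all genes together is not visible. Arrays have no read depth; 2 per group limit the precision. Of the columns, all 12 entered and 0 stayed out.

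From 22690 probe sets 64 controls were removed. The platform annotation gave 20380 of the others 1 symbol, 691 several and 1555 none; 0 symbols changed through RefSeq. Tests covered the 15844 probe sets whose mean reached the 30th percentile (log2 3.98). The limma package 3.58.1 (R 4.3.3) fitted 6 group means with moderated variances (6 residual degrees of freedom), and p-values were adjusted over all tested probe sets by Benjamini-Hochberg. Errors are standard errors, intervals are 95% and tests two-sided.

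Array sets came from complete linkage clustering into 4 clusters (the largest against the rest) of these same values. The fit with the set as a block had 5 residual degrees of freedom. Differences between first and second arrays correlated between TCDD and solvent at 0.365, 0.159 and 0.705 at 2, 4 and 6 h. From these data alone, replicate numbers were taken to pair the arrays, and a replicate block was an alternative. The fit reported did not use this pairing. At 2 and 6 h the second arrays of both treatments were in the smaller set, so these correlations do not part pairing from array set. The code was tested on simulated data. The named genes were the listed members, genes of other lists past the test, the highest and lowest average changes of each list, and the 3 most alike genes with an SD of 0.2 or more. The members and lists were chosen with earlier results of these data known.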

Additional observations from a re-analysis of the deposited data

How the results depend on the processing

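Under all 25 alternatives (12 left out 1 array each, and 13 changed another choice, each where it applied), 0 of the 15 probe sets passed the test in any comparison. The lowest adjusted p of any was 0.117 by limma (Ccng1, 6 h against 2 h, without the first 4 h TCDD array). The replicate block within each time gave a lowest adjusted p of 0.177 for the average (Btg2) and changed no call. Of 2073 values of single probe sets, 82 changed sign, none of them called. The median change of the 15 at 2 h was 0.05 with solvent arrays of all times as 1 group (0.15 in the fit reported), and 0.10 to 0.20 when arrays were left out. At 4 h it was 0.14 with the array set as a block (-0.05 in the fit reported), -0.075 with 4 h and 6 h solvent arrays as 1 group, and -0.05 to 0.05 when arrays were left out. At 6 h it was -0.10 to 0.15 when arrays were left out, highest without the first solvent array, and in the average -0.02 to 0.12. Over all probe sets, 3 passed at 2 h (0 to 12 over the alternatives), 2 at 4 h (0 to 59), 1 at 6 h (0 to 15) and 15 in the average (8 to 46); 59 came without the second 4 h TCDD array. Causes were not tested. With 2 arrays a group, a miss does not show that a gene stayed the same.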
